A study of Mus musculus with 18 samples.

Results

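The cytosolic ribosomal protein genes were taken from the count tables by symbol. A gene was a member if it was named Rpl or Rps followed by a number, with or without a closing letter and digit, or was Rplp0, Rplp1, Rplp2 or Rpsa. This gave 89 of the 53672 genes listed, of which 77 were canonical genes of the ribosome (46 of the large subunit and 31 of the small subunit), 6 were paralogues and 6 were pseudogenes by annotation. Of the 89 members, 88 passed the filter on low counts, and the pseudogene Rpl32l, with between 3 and 13 counts in each library, did not.

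The ribosome is built of a small subunit, which decodes the messenger RNA, and a large subunit, which joins the amino acids. Each subunit carries a fixed set of ribosomal proteins on ribosomal RNA, and these proteins are made in near-equal amounts. Ribosomal protein genes are among the most highly expressed genes of a growing cell such as an embryonic stem cell (ESC), and most of their mRNAs open with a run of pyrimidines, the TOP sequence, through which growth signals set how much they are translated. HDAC1 and HDAC2 are histone deacetylases that work inside several multiprotein complexes.

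RNA was sequenced from mouse E14TG2a ESCs in which both alleles of Hdac1 and Hdac2 carry loxP sites, so that 4-hydroxytamoxifen (OHT) removes the endogenous genes. Each of 3 lines stably expressed a rescue transgene, put in with the piggyBac transposon: HDAC1-WT, HDAC1-E63R or HDAC1-Y48E, the last 2 of which were made to disturb the surface by which HDAC1 joins its complexes. Every line was taken untreated, and so with endogenous Hdac1 and Hdac2 beside the transgene, and after OHT at 1 uM, giving 6 groups of 3 libraries. The labels give 5 days of OHT, and the study's methods 24 h of OHT and 4 further days of culture. All 6 groups therefore share the floxed alleles and carry a transgene, and each rescue is represented by a single line. The study calls the libraries of a group biological replicates, without saying how they were kept apart, and p-values measure the spread between those libraries only.

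The libraries held between 9019615 and 11454638 counts on genes. At these totals 3 counts correspond to between 0.262 and 0.333 CPM, the unit used here for counts scaled to a common library size. The CPM below also use the TMM factors of edgeR, which adjust the library totals and lay between 0.814 and 1.11. This floor does not include them. The counts on Hdac1 and Hdac2 cover the whole of each gene, so they do not check the deletion. Hdac2 stood at 168 to 208 CPM untreated and 112 to 132 with OHT in HDAC1-WT, while the groups overlapped in HDAC1-E63R, at 152 to 209 and 149 to 158, and in HDAC1-Y48E, at 149 to 154 and 139 to 152. Hdac1 stood at 200.5 to 210.2 CPM and 168 to 179 in HDAC1-WT, at 94.8 to 110.1 and 112 to 131 in HDAC1-E63R, and at 97.8 to 104 and 109.9 to 113 in HDAC1-Y48E.

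ESC markers were present throughout. Their summed level was 5982 to 6076 CPM untreated and 2589 to 2739 CPM with OHT in HDAC1-Y48E, where 8 of 8 were lower, and 5510 to 8984 and 4704 to 5059 CPM in HDAC1-E63R, where 4 of 8 were lower. In HDAC1-WT it was 7794 to 7961 and 8166 to 9003 CPM. Of the marker lists for trophoblast, primitive endoderm and fibroblasts, of 8 genes each with 7, 6 and 4 tested, 4, 1 and 2 were higher with OHT in HDAC1-Y48E and 5, 1 and 2 in HDAC1-E63R, and 0 were lower in either line. Of all genes tested 16.2% were higher and 14.7% lower in HDAC1-Y48E, and 7.49% and 6.82% in HDAC1-E63R. Of the endoderm markers, 1 of 6 in HDAC1-Y48E was thus near the share of all genes. With 17 libraries the endoderm counts were 2 and 0, 1 ESC marker was also higher in HDAC1-E63R, and 3 ESC markers and 1 fibroblast marker were higher in HDAC1-WT, where 18 libraries called 0. Of all genes, 21.2% were then higher in HDAC1-Y48E, 8.85% in HDAC1-E63R and 0.738% in HDAC1-WT. Summed trophoblast markers were at 83.7 to 93.0 CPM untreated and 134 to 148 with OHT in HDAC1-Y48E, at 68.5 to 93.1 and 172 to 181 in HDAC1-E63R, and above the HDAC1-Y48E levels in HDAC1-WT, at 223 to 246 and 247.5 to 279.8. Primitive endoderm markers were at 17.97 to 25.7 and 48.2 to 53.5 CPM in HDAC1-Y48E, 12.5 to 20.8 and 22.5 to 27.4 in HDAC1-E63R, and 41.1 to 43.5 and 36.1 to 42.1 in HDAC1-WT. Fibroblast markers were at 40.9 to 43.4 and 94.9 to 104.5 CPM in HDAC1-Y48E, 27.8 to 40.8 and 60.5 to 68.6 in HDAC1-E63R, and 43.4 to 49.5 and 62.1 to 66.0 in HDAC1-WT. Tpbpa was at 0 in every OHT library of both mutant lines, and also in the untreated groups of all 3 lines. Dcn and Lum were at 0 with OHT in HDAC1-Y48E and in HDAC1-WT, and Lum in every untreated group too. In HDAC1-WT with OHT, Cdx2, Col3a1 and Postn were also at 0. The part of these cells in the results was not tested, and in bulk samples fewer cells of a type and less RNA per cell cannot be told apart.

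One library stood apart, the third of HDAC1-E63R untreated. It differed from the other libraries of its group by 55.1 and 61.1 in chi-square per degree of freedom over genes, where all other pairs of replicates gave between 3.36 and 7.07. Its level over the mean of the other 2, on the log2 scale, had a median of 1.06 over the canonical members, with 76 of 77 above 0, and of -0.04 over all tested genes. Short genes stood higher in it in general, since the median was 0.41 in the shortest genes and -0.57 in the longest, with genes split by transcript length into 5 equal parts. Nuclear-encoded genes of the respiratory chain were up by 0.97 and those of the mitochondrial ribosome by 0.75. The library enters the estimate of the spread for every gene. Counts of members and of listed genes are therefore given below for the 18 libraries and for the 17 without it. Many single genes are given both ways where leaving it out changed the call or, in HDAC1-E63R, the size.

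A sequence feature that many members share lies at the promoter. RefSeq windows on GRCm38.p6, from 250 bases before to 50 bases after the annotated start, were held for 64 of the 89 members. Between 50 bases before and 50 bases after the start, a run of at least 10 pyrimidines stood on the coding strand in 70.1% of 67 windows of canonical members, in 1 of 8 windows of paralogues and in 18.1% of all 32851 windows. Over the 300 bases on both strands, CCGGAAG, a core that ETS factors bind, was in 37.3% of canonical windows and 8.86% of all windows. AAGATGG, a core of the YY1 motif, was in 16.4% and 6.34%, and TATAAA, the TATA box, in 8.96% and 13.6%. A match of letters is a description and not a binding site.

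The sequences below run from 60 bases before to 20 bases after the start, and are those of 4 of the canonical members that fell furthest in HDAC1-Y48E, and of 2 pairs of an X-linked gene and its autosomal paralogue that moved in opposite directions there. Capitals mark runs of 7 or more pyrimidines.
Rps27, chr3:90213629-90213708, minus strand: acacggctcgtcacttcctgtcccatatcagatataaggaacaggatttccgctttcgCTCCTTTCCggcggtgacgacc
Rpl27a, chr7:109519135-109519214, plus strand: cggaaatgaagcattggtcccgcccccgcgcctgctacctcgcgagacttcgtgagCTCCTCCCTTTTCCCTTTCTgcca
Rpl28, chr7:4792905-4792984, plus strand: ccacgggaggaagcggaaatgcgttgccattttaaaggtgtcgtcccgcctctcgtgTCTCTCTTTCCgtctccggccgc
Rpl9, chr5:65391412-65391491, minus strand: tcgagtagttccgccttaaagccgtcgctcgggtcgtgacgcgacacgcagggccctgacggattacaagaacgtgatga
Rpl10, chrX:74270756-74270835, plus strand: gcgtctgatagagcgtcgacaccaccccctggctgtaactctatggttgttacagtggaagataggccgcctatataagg
Rpl10l, chr12:66284382-66284461, minus strand: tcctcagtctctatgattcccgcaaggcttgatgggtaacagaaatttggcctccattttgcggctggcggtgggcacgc
Rpl39, chrX:37085203-37085282, minus strand: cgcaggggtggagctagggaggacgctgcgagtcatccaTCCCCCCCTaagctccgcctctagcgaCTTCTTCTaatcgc
Rpl39l, chr16:10170168-10170247, plus strand: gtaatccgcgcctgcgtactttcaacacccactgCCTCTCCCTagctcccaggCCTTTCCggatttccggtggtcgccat
In Rps27, Rpl27a and Rpl28 the run spans the annotated start, with the longest, of 20 bases, in Rpl27a. Rpl9, Rpl10 and Rpl10l held no run of 7 within these bases. The stretch counted above, to 50 bases after the start, held a run of at least 10 in Rpl9 and Rpl10 but not in Rpl10l.

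The members took a smaller share of the counts on genes in HDAC1-Y48E and HDAC1-E63R after OHT. In HDAC1-Y48E the 3 untreated libraries held 12.1%, 11.2% and 10.9% of their counts on genes in the members, and the 3 OHT libraries 8.47%, 8.14% and 8.61%. The means were 11.4% ± 0.647 and 8.40% ± 0.241 (SD, n = 3), a difference of -3.01 percentage points, or -26.3% of the untreated share, and the groups did not overlap. In HDAC1-E63R the untreated libraries held 10.2%, 9.47% and 17.03%, and the OHT libraries 8.37%, 8.67% and 8.95%. The difference of the means was -3.58 points with the third untreated library, whose 17.03% was the highest of all 18, and -1.19 points without it, or -12.1% of the untreated share. In HDAC1-WT the untreated libraries held 12.5%, 12.4% and 11.3% and the OHT libraries 11.5%, 11.2% and 10.96%, which overlapped, and the difference of -0.821 points compares with a pooled SD of 0.499 points.

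Both subunits took part in about the same proportion. In HDAC1-Y48E the share on the large subunit went from 6.51% ± 0.389 to 4.74% ± 0.127, and that on the small subunit from 4.90% ± 0.260 to 3.66% ± 0.115 (SD, n = 3). Relative to the untreated share these were -27.1% and -25.3%. The counts on rows named as pseudogenes of ribosomal protein genes, of which there were 291, took 0.469% ± 0.0198 and 0.336% ± 0.0134 of the counts in the same groups. Reads of a gene that the counting gave to these rows were thus few beside those on the members, and they moved the same way. Copies under other names, such as Gm12191 of Rpl30 and Gm8730 of Rplp0, are not among these rows and can hold more counts than the member.

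**Figure D1:**
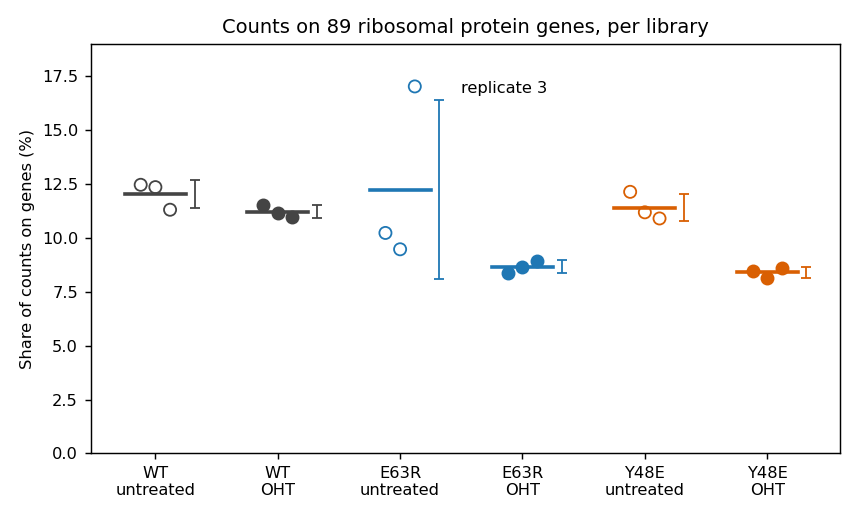
Share of the counts on genes that fell on the 89 ribosomal protein genes, in percent, for each of the 18 libraries (points) with the mean and SD of each group of 3. The OHT libraries of HDAC1-E63R and HDAC1-Y48E lie between 8.14% and 8.95%, below every untreated library, and the third HDAC1-E63R untreated library lies at 17.03%.

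In HDAC1-Y48E after OHT most canonical members were lower. Of the 88 members tested, 49 fell and 2 rose at an adjusted p below 0.01 (edgeR quasi-likelihood test, Benjamini-Hochberg adjustment over all 18791 genes tested), where 14.7% of all genes tested fell and 16.2% rose. The 17-library fit made 79 lower and 3 higher, against 19.9% and 21.2% of 19503 genes, and all of the 49 were among the 79. The fold changes hardly differed between the fits, by at most 0.0051 in any member, with a member median of -0.67 and -0.68 on the log2 scale against 0.05 and 0.06 over all genes tested. All 77 canonical members had a negative value, from -1.15 to -0.24, and their median standard error went from 0.18 to 0.05 when the set-apart library was left out. The untreated and OHT libraries did not overlap, with OHT lower, in 81 members, against 27.5% of all genes. The count of calls also rested on single libraries of the line, with 27, 23 and 24 members lower without OHT replicate 1, OHT replicate 2 or untreated replicate 1. Shares over all genes are not given for these fits, so how far the loss of calls was particular to the members was not tested.

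The largest declines among the members called were in Rpl30, Rps27, Rpl27a, Rpl9, Rpl28 and Rpl6l. Rps27, a zinc-finger protein of the small subunit (chr3:90212522-90213651, minus strand), had 1428, 1031 and 917 CPM untreated and 575, 533 and 550 CPM with OHT, so every OHT library lay below every untreated one. Its log2 fold change was -1.02 ± 0.20 (SE; edgeR adjusted p = 0.00021). Rpl30 (chr15:34440505-34443640, minus strand), a large subunit protein at the interface with the small subunit, had 256, 205 and 194 CPM untreated and 102, 93.6 and 119 CPM with OHT. Its fold change was -1.06 ± 0.21 (SE; edgeR adjusted p = 0.00031). Rps27 and Rpl30 were the only canonical members beyond 2-fold at an adjusted p below 0.01 in the 18-library and 17-library fits of this line. With Rpl39l and Rpl10l they made 4 differentially expressed genes (DEGs) among the members, where 16.6% and 18.6% of all genes were DEGs. A near-identical processed copy, Gm12191, and an antisense neighbour share sequence with Rpl30, and Rpl30 and Gm12191 summed gave -0.92.

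Rpl27a, whose start carries the longest pyrimidine run shown above, went from 2397, 2184 and 2071 CPM to 1176, 1155 and 1117 CPM, a change of -0.95 ± 0.18 (SE; edgeR adjusted p = 0.0002). For Rpl9 the values were 1538, 1378 and 1424 CPM and then 785, 737 and 788 CPM, a change of -0.91 ± 0.16 (edgeR adjusted p = 8.6e-05). Rpl28 went from 1553, 1475 and 1351 CPM to 760, 768 and 802 CPM (-0.91 ± 0.16). In all 3 genes the 2 groups were well separated, the lowest untreated library being above the highest OHT library. The pseudogene Rpl6l, which shares sequence with Rpl6, was at 157, 146 and 143 CPM and then 77.02, 77.3 and 83.2 CPM.

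Proteins with known roles outside the core of the ribosome followed the same direction to different extents. Rpl5 and Rpl11 form, with 5S ribosomal RNA, the particle that binds Mdm2 when ribosome assembly is disturbed. Rpl5 had 1989, 1897 and 2100 CPM untreated and 1388, 1344 and 1447 CPM with OHT (-0.52 ± 0.17, edgeR adjusted p = 0.015, and 9.4e-13 in the 17-library fit). Rpl11 went from between 1045 and 1166 CPM to between 685 and 700 CPM (-0.66 ± 0.19, edgeR adjusted p = 0.0082). Rpsa, which also serves as a laminin receptor at the cell surface, had 4169, 3995 and 3878 CPM and then 2477, 2465 and 2478 CPM (-0.70 ± 0.17, edgeR adjusted p = 0.0022).

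The stalk of the large subunit, which recruits the elongation factors, is made of Rplp0, Rplp1 and Rplp2. Rplp1 had 3363, 3177 and 2809 CPM untreated and 2002, 1937 and 2064 CPM with OHT (-0.64 ± 0.22, edgeR adjusted p = 0.02, and 2.1e-13 with 17 libraries). Rplp2 had 1603, 1421 and 1306 CPM and then 940, 890 and 898 CPM (-0.66 ± 0.22, edgeR adjusted p = 0.02, and 3.2e-13 with 17 libraries). Rplp0, the base of the stalk, had 1508, 1398 and 1392 CPM untreated and 1205, 1217 and 1200 CPM with OHT. Its change of -0.24 ± 0.14 was the smallest in size of the canonical members (edgeR adjusted p = 0.17, and 6.3e-05 with 17 libraries). A near-identical copy, Gm8730, held 107 counts for each 100 on Rplp0, and the pair summed gave -0.24.

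Per kilobase of transcript, the most abundant member was Rplp1, with a mean of 5710 CPM over the 18 libraries, followed by Rpl13 with 5514, Rps18 with 3941, Rpl32 with 3780 and Rpl41 with 3626. In HDAC1-Y48E, Rpl13 went from 4554, 4258 and 3978 CPM to 2477, 2344 and 2454 CPM, a change of -0.81 ± 0.19 (SE; edgeR adjusted p = 0.0018). Rps18, on the head of the small subunit, went from 2754, 2556 and 2484 CPM to 1404, 1389 and 1473 CPM, a change of -0.87 ± 0.19 (edgeR adjusted p = 0.0007). Rpl32 changed by -0.74 ± 0.18 and Rpl41, the shortest ribosomal protein, by -0.42 ± 0.23 (edgeR adjusted p = 0.14, and 8.9e-07 with 17 libraries).

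**Figure D2:**
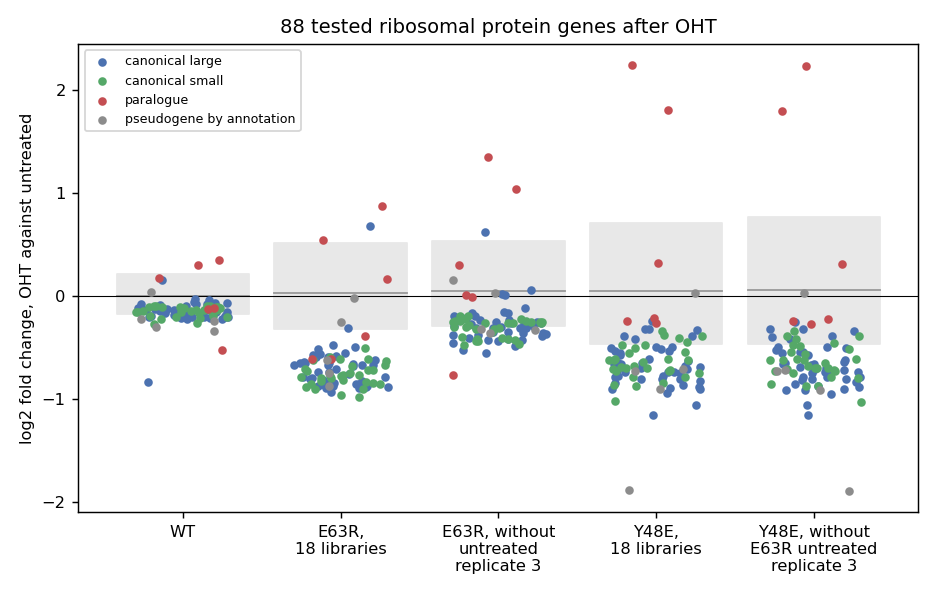
Log2 fold change of each of the 88 tested members after OHT, coloured by class. The 18-library fit is shown for the 3 lines, and the 17-library fit for HDAC1-E63R and HDAC1-Y48E only. The canonical members sit near -0.14 in HDAC1-WT and between -1.15 and -0.24 in HDAC1-Y48E, and Rpl39l and Rpl10l stand above 1.8 in HDAC1-Y48E.

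In HDAC1-E63R after OHT, 64 members were lower and 1, Rpl39l, was higher with 18 libraries, against 6.82% and 7.49% of all genes tested. With 17 libraries 64 were lower and 3 higher (Rpl10l, Rpl39l and Rpl7l1), against 9.63% and 8.85%, and 63 members were lower in both fits. No member was a DEG with 18 libraries and 2, Rpl10l and Rpl39l, were with 17, against 5.91% and 5.74% of all genes. The size of the decline did depend on the set-apart library, which is in the untreated arm of this line. The member median was -0.74 with it and -0.29 without it, where the medians over all genes were 0.03 and 0.05. OHT was lower with no overlap between the groups in 70 members, against 15.7% of all genes. Without OHT replicate 1, 2 or 3 of this line 16, 22 and 26 members were lower, with shares over all genes not given. Fitting only the 6 libraries of this line called 0 members, lower or higher, at a median of -0.75, and library totals in place of TMM factors left 25 lower. Of all genes, the fit of 6 libraries called 135 lower and 318 higher of 16686. Library totals called 541 lower and 2167 higher of 18791.

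Rps15, a protein of the small subunit head, had 1420, 1281 and 2988 CPM untreated and 941, 992 and 978 CPM with OHT in HDAC1-E63R. It changed by -0.97 ± 0.19 (SE; edgeR adjusted p = 0.00086), and by -0.48 ± 0.06 with 17 libraries (edgeR adjusted p = 5.3e-08). Rpl13 went from 3786, 3546 and 8325 CPM to 2592, 2833 and 2764 CPM (-0.93 ± 0.19, or -0.43 ± 0.05). Rps4x, the X-linked S4 protein, went from 1866, 1673 and 3766 CPM to 1272, 1360 and 1281 CPM (-0.90 ± 0.18, or -0.44 ± 0.05). In each gene the OHT libraries also lay below the lower 2 untreated libraries. Rps14, Rps29 and Rpl26 complete the largest declines of this line, at -0.98, -0.91 and -0.90 with 18 libraries and -0.41, -0.42 and -0.36 with 17.

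Members called in both mutant lines were counted from each fit. With 18 libraries, 45 members were lower in both lines, which is 70.3% of the 64 of HDAC1-E63R and 91.8% of the 49 of HDAC1-Y48E. Of all genes tested 5.61% were lower in both. With 17 libraries the 64 of HDAC1-E63R were all among the 79 of HDAC1-Y48E, of which they made up 81.0%. Of all genes 8.41% were then lower in both, or 1640 genes, beside 1879 lower in HDAC1-E63R and 3884 in HDAC1-Y48E. Rplp0 was not called in HDAC1-E63R under either fit, with 1346, 1200 and 2206 CPM untreated and 1224, 1296 and 1318 CPM with OHT. Rpl41, at 1728, 1437 and 4076 CPM and then 1519, 1588 and 1710 CPM, was not called either.

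In HDAC1-WT no member was called with 18 libraries, where 0.0373% of all genes were called higher and 0.0213% lower. At an unadjusted p below 0.05 edgeR had 0 members higher and 2 lower, and DESeq2 called 0. With 17 libraries 0 were higher and 9 were lower, against 0.738% and 0.656% of all genes, namely Rpl10l, Rpl3, Rpl4, Rpl5, Rps15a, Rps23, Rps25, Rps3a2 and Rps3a3. The member median was -0.14 in both fits, and 76 of the 77 canonical members had a negative value. Rpl3, which lies near the site where peptide bonds form, had 2029, 2132 and 1903 CPM untreated and 1818, 1738 and 1684 CPM with OHT, a change of -0.21 ± 0.15 (edgeR adjusted p = 0.73, and 0.0066 with 17 libraries). In HDAC1-Y48E the same gene had 2112, 1987 and 2080 CPM and then 1146, 1119 and 1117 CPM (-0.87 ± 0.15). With OHT lower, 40 members had no overlap between the groups, against 9.64% of all genes.

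The difference between the OHT effects of 2 lines was tested as an interaction, with each line set against its own untreated libraries. For HDAC1-Y48E against HDAC1-WT, the 18-library fit called 2 members higher, Rpl10l and Rpl39l, and 0 lower, where 5.84% of genes were higher and 6.77% lower. At an unadjusted p below 0.05, 32 members were lower, and DESeq2 called 1 lower. Shares over all genes are not given for these counts, so how far they were particular to the members was not tested. The 17-library fit called the same 2 higher and 74 lower, against 10.2% and 12.9% of genes, while the member median stayed at -0.50 and -0.51. Rps27 had an interaction of -0.88 ± 0.27 (edgeR adjusted p = 0.023) and of -0.89 ± 0.11 with 17 libraries (edgeR adjusted p = 2.3e-08). Rpl27a had -0.80 ± 0.25 (edgeR adjusted p = 0.026) and -0.81 ± 0.07.

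For HDAC1-E63R against HDAC1-WT, 0 members were called with 18 libraries, against 1.44% of genes higher and 1.01% lower. At an unadjusted p below 0.05 there were 1 higher and 62 lower, again without shares over all genes, and DESeq2 called 0. With 17 libraries 2 were higher (Rpl10l and Rpl39l) and 5 lower (Rpl13, Rpl28, Rpl3, Rps15 and Rps3), against 2.9% and 3.63% of genes. The member median was -0.60 with 18 libraries and -0.15 with 17. Without HDAC1-E63R untreated replicate 2, 14 members were lower, with shares over all genes not given for that fit. For HDAC1-Y48E against HDAC1-E63R the 18-library fit called Rpl39l higher and 0 members lower, against 0.415% and 1.53% of genes, with 0 lower at an unadjusted p below 0.05 and 0 lower by DESeq2. The call of Rpl39l was lost in each fit that left out an OHT replicate of either line, or HDAC1-Y48E untreated replicate 2 or 3. In the 17-library fit 2 were higher and 54 lower, against 2.14% and 5.31%, and the member median went from 0.11 to -0.35, so its direction turned.

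The paralogues Rpl39l and Rpl10l rose in HDAC1-Y48E while the genes they resemble fell. Both have a parent on the X chromosome, Rpl39 and Rpl10, and both are known from the testis, where the X chromosome is silent during meiosis. Rpl39l (chr16:10170226-10174911, plus strand) had 33.7, 28.3 and 27.2 CPM untreated and 136, 140 and 146 CPM with OHT in HDAC1-Y48E. This was a log2 fold change of 2.24 ± 0.20 (SE; edgeR adjusted p = 1.2e-08), the largest rise of any member. In HDAC1-E63R it had 12.8, 12.3 and 27.5 CPM and then 33.5, 29.1 and 33.7 CPM, a change of 0.88 ± 0.21 (edgeR adjusted p = 0.0037), or 1.35 ± 0.14 with 17 libraries. In HDAC1-WT the values were 87.4, 72.05 and 61.8 CPM and then 84.5, 100.3 and 96.3 CPM, which overlapped (0.35 ± 0.19, edgeR adjusted p = 0.59). The rise in HDAC1-Y48E thus began from a lower untreated level than that of HDAC1-WT and ended above it.

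Rpl39 itself, the short protein lining the exit tunnel, had 1062, 860 and 701 CPM untreated and 499, 474 and 549 CPM with OHT in HDAC1-Y48E (-0.78 ± 0.20, edgeR adjusted p = 0.003). Of the counts on Rpl39 and Rpl39l together, Rpl39l held 3.34% ± 0.354 untreated and 21.8% ± 0.883 with OHT (SD, n = 3). In HDAC1-E63R its part went from 1.91% ± 0.134 to 5.39% ± 0.26, and in HDAC1-WT from 8.75% ± 1.37 to 11.3% ± 1.35. No near-identical copy of Rpl39 or of Rpl39l was found in the annotation, and no other gene overlapped their exons.

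Rpl10l (chr12:66283379-66284401, minus strand) had 28.3, 24 and 23.6 CPM untreated and 87.0, 89.3 and 89.04 CPM with OHT in HDAC1-Y48E, a change of 1.81 ± 0.21 (SE; edgeR adjusted p = 6.3e-07). In HDAC1-E63R it had 13.7, 17.8 and 35.4 CPM and then 36.5, 31.6 and 28.7 CPM. That change was 0.54 ± 0.22 (edgeR adjusted p = 0.07), and 1.04 ± 0.15 without the set-apart library (edgeR adjusted p = 4.6e-07). In HDAC1-WT it was lower in all 3 OHT libraries, at 28.6, 24.4 and 23.1 CPM against 35.3, 36.2 and 37.9 CPM, a change of -0.52 ± 0.21 (edgeR adjusted p = 0.39, and 0.0096 with 17 libraries). Rpl10, the parent, which joins the large subunit last, went from 1556, 1437 and 1398 CPM to 894, 901 and 885 CPM in HDAC1-Y48E (-0.71 ± 0.13, edgeR adjusted p = 0.00017). Rpl10l made up 1.70% ± 0.0807 of the counts on the pair untreated and 9.01% ± 0.134 with OHT in HDAC1-Y48E, 1.27% ± 0.315 and 2.95% ± 0.435 in HDAC1-E63R, and 2.23% ± 0.167 and 1.70% ± 0.197 in HDAC1-WT.

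The other paralogues moved less. Rpl7l1 had 137, 130 and 134 CPM untreated and 174, 162 and 163 CPM with OHT in HDAC1-Y48E (0.32 ± 0.11, edgeR adjusted p = 0.018, and 0.00031 with 17 libraries), while Rpl7 changed by -0.50 ± 0.15. Rps27l, a p53 target, changed by -0.22 ± 0.17 and Rpl22l1 by -0.24 ± 0.24, neither of which was called with 18 libraries, and Rps27l was with 17 (edgeR adjusted p = 0.0045). Their parts of the counts with Rps27 and with Rpl22 went from 23.3% ± 2.69 to 34.2% ± 0.54 and from 14.7% ± 1.08 to 19.6% ± 0.838 in HDAC1-Y48E. Rps4l, annotated as a transcribed processed pseudogene, had 361, 349 and 338 CPM and then 330, 379 and 361 CPM (0.03 ± 0.17), and its part of the counts with Rps4x went from 14.9% ± 0.432 to 24.7% ± 1.31 while Rps4x was lower (-0.88 ± 0.18). Rpl3l, known from heart and skeletal muscle, had 14 to 32 counts in each untreated and 19 to 28 in each OHT library of that line and was not called in any of the 3 lines under either fit.

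**Figure D3:**
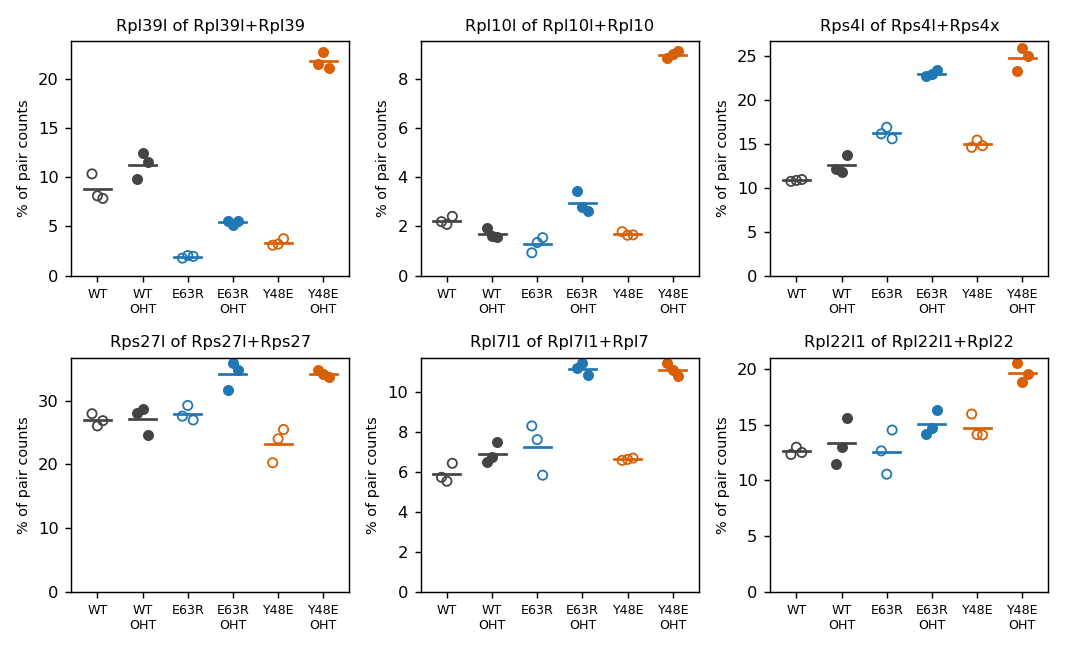
Percent of the counts on a paralogue and its parent that fell on the paralogue, for each library (points) of the 6 groups with the group mean. The HDAC1-Y48E OHT libraries lie between 21.04% and 22.7% for Rpl39l and between 8.87% and 9.14% for Rpl10l, above all other libraries.

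Before OHT few members were called between the lines with 18 libraries, a smaller part than of all genes in each comparison. The set-apart library turned the direction of the member median in 2 of the 3 comparisons. For HDAC1-E63R against HDAC1-WT, the 18-library fit called 3 members higher (Rpl32, Rpl7l1 and Rps4l) and 1 lower (Rpl39l), against 9.04% and 7.83% of genes, with a member median of 0.15. It called 9 without HDAC1-E63R untreated replicate 2, and 2 without HDAC1-WT untreated replicate 1 or 2, with shares over all genes not given. Without the set-apart library 3 were higher and 66 lower, against 11.0% and 9.59%, and the median was -0.28. For HDAC1-Y48E against HDAC1-WT, 1 member was lower, Rpl39l, against 5.74% of genes, and 0 were higher, against 6.42%. At an unadjusted p below 0.05 there were 2 higher, and DESeq2 called 0 higher. With 17 libraries 4 were higher (Rpl32, Rpl37a and Rps4l among them) and 12 lower. These were 4.55% and 13.6% of the members tested, against 11.4% and 9.98% of genes. The member median was -0.06 with 18 libraries and -0.05 with 17. For HDAC1-Y48E against HDAC1-E63R, 0 members were called with 18 libraries (1 higher and 3 lower at an unadjusted p below 0.05, and 0 by DESeq2), against 0.846% of genes higher and 1.0% lower. With 17, 38 were higher and 0 lower, against 2.33% and 2.34%, and the median went from -0.21 to 0.22.

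Rpl39l was the member that set the untreated lines furthest apart. It stood at 61.8 to 87.4 CPM in HDAC1-WT, 12.3 to 27.5 in HDAC1-E63R and 27.2 to 33.7 in HDAC1-Y48E. Against HDAC1-WT this was -2.08 ± 0.21 in HDAC1-E63R (edgeR adjusted p = 1.8e-07) and -1.31 ± 0.20 in HDAC1-Y48E (edgeR adjusted p = 5.2e-05), and -2.55 ± 0.14 and -1.31 ± 0.11 with 17 libraries. Rpl32 had 1879, 1819 and 1615 CPM in HDAC1-WT and 2567, 2405 and 2403 CPM in HDAC1-Y48E. Its difference was 0.47 ± 0.18 (edgeR adjusted p = 0.07, and 6.3e-10 with 17 libraries). Rps4l had 241, 253 and 239 CPM in HDAC1-WT and 361, 349 and 338 CPM in HDAC1-Y48E, with 359, 340 and 695 CPM in HDAC1-E63R. Its difference from HDAC1-WT was 0.52 ± 0.17 in HDAC1-Y48E (edgeR adjusted p = 0.033, and 2.6e-09 with 17 libraries) and 0.93 ± 0.17 in HDAC1-E63R (edgeR adjusted p = 0.00027), or 0.52 ± 0.07 with 17.

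Genes that work with the ribosome were followed as lists. Of the genes for ribosomal or ribosome-bound proteins that the rule did not take, Fau, Rack1 and Rpl36al are given here and the list is not summed up. In HDAC1-Y48E after OHT Fau, which encodes a small subunit protein fused to a ubiquitin-like protein, changed by -1.10 ± 0.21 (edgeR adjusted p = 0.00022), and Rack1, a scaffold on the small subunit, by -0.91 ± 0.14 (edgeR adjusted p = 1.7e-05). Rpl36al stood at 0.06 ± 0.75 on the same scale (edgeR adjusted p = 0.959). Of 38 translation factors 17 were lower and 2 higher with 18 libraries, with a median of -0.34, and 23 and 5 with 17. Eif3c, Eif3h, Eef1g and Eef1a1 changed by -1.13, -1.04, -1.01 and -0.95. The first 2 are subunits of the initiation factor eIF3, and the others carry or help to deliver aminoacyl-tRNA.

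Of 53 ribosome biogenesis genes 19 were lower and 3 higher in HDAC1-Y48E with 18 libraries, with a median of -0.24, and 25 and 5 with 17. Dkc1, the pseudouridine synthase of the nucleolus, was at -1.35 ± 0.11 (edgeR adjusted p = 2.7e-09). Host genes of small nucleolar RNAs, whose transcripts often also open with a pyrimidine run, were 8 lower and 0 higher of 13, with a median of -1.29, and 10 and 0 with 17 libraries. Epb41l4aos and Zfas1 among them were at -2.36 and -1.65. Rows named as pseudogenes of the members had 15 lower and 0 higher of 90 tested, with a median of -0.73, and 31 and 0 of 94 with 17 libraries. Of 75 nuclear-encoded respiratory chain genes 17 were lower and 1 higher (median -0.26), and 37 and 6 with 17 libraries. Of 79 mitochondrial ribosomal protein genes 13 were lower and 3 higher (median -0.07), and 23 and 11 with 17. All these counts stand against 14.7% of genes lower and 16.2% higher with 18 libraries, and 19.9% and 21.2% with 17. With 18 libraries the parts of the pseudogene rows and of the mitochondrial ribosomal protein genes called lower lie near that share.

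Among regulators, 4 of 15 genes of TOR signalling and translation control were lower and 2 higher in HDAC1-Y48E, and 7 and 3 with 17 libraries. Myc, a transcription factor of growth genes, was at 2.17 ± 0.61 (edgeR adjusted p = 0.0064). It was at 2.19 ± 0.74 in HDAC1-WT (edgeR adjusted p = 0.26) and at 1.63 ± 0.56 in HDAC1-E63R (edgeR adjusted p = 0.035), neither of which was called with 18 libraries. The highest value of this list in HDAC1-E63R was 1.63 with 18 libraries and 1.27 with 17. Mycn was at -0.86 ± 0.12 in HDAC1-Y48E (edgeR adjusted p = 3.4e-06). Of 16 genes of p53 and the ribosome stress response 6 were lower and 3 higher, and 8 and 3 with 17 libraries. Of all genes 14.7% were lower and 16.2% higher in HDAC1-Y48E with 18 libraries, and 19.9% and 21.2% with 17. The parts of these 2 lists called higher lie near those shares.

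In HDAC1-E63R, where 6.82% of all genes were lower and 7.49% higher with 18 libraries and 9.63% and 8.85% with 17, the translation factors had 14 lower and 1 higher of 38, and 16 and 3 with 17. Biogenesis genes had 5 lower and 1 higher of 53, and 8 and 4 with 17, and mitochondrial ribosomal protein genes 4 and 0 of 79, and 3 and 7 with 17. The host genes had 8 lower and 0 higher of 13, and 7 and 0 with 17. The pseudogene rows had 13 and 0 of 90, and 10 and 0 of 94 with 17. Respiratory chain genes had 13 and 0 of 75, and 13 and 6 with 17. TOR and translation control had 1 lower and 1 higher of 15, and 2 and 1 with 17, and p53 and ribosome stress 3 and 0 of 16, and 6 and 0 with 17. Leaving out the set-apart library changed the median of the respiratory chain from -0.36 to -0.03, that of the mitochondrial ribosome from -0.26 to 0.01, that of translation factors from -0.27 to -0.09, and that of the host genes from -0.88 to -0.64.

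In HDAC1-WT 0 genes of these lists were called with 18 libraries. With 17 libraries 3 of 38 translation factors, 4 of 16 p53 genes, 1 of 79 mitochondrial ribosomal protein genes and 1 of 94 pseudogene rows were lower there and 0 were higher, against 0.656% and 0.738% of all genes.

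**Figure D4:**
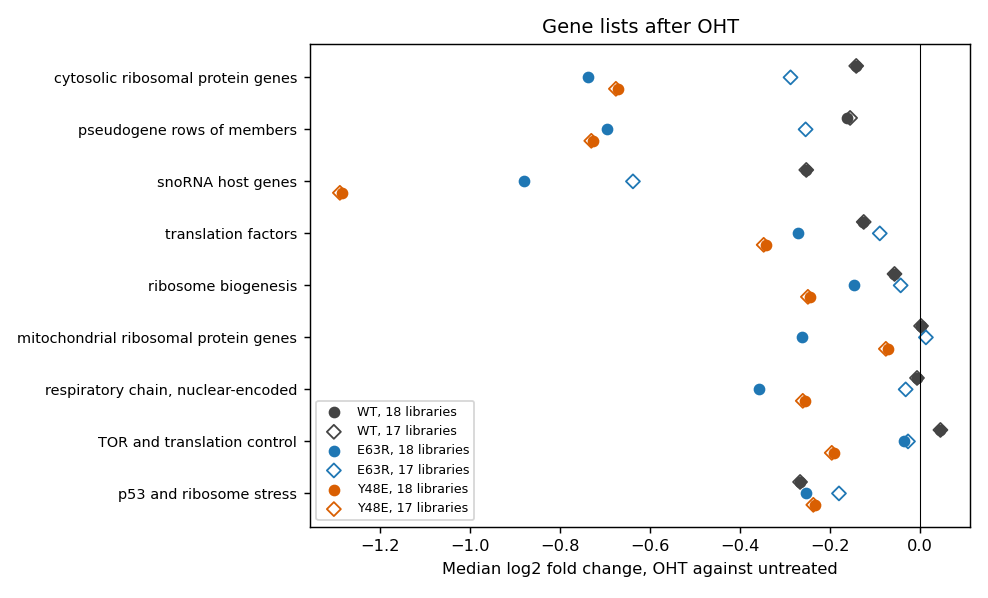
Median log2 fold change after OHT of the gene lists, for the 3 lines, in the 18-library fit (filled) and the 17-library fit (open). In HDAC1-Y48E the ribosomal protein genes are at -0.67 and the host genes of small nucleolar RNAs at -1.29, while the mitochondrial ribosomal protein genes are at -0.07.

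Members with near-identical copies elsewhere in the genome are uncertain, since reads that fit both places may be lost or moved. Within each library 6.29% to 7.86% of entries were reads that did not map to 1 place. Among canonical members 63 had a mean above 1000 CPM per kilobase, the median being 1691, and 4 lay below 100. These were Rpl13a, Rpl34, Rpl29 and Rpl24, for which annotated near-identical copies held 78.8, 4380, 522 and 1454 counts for each 100 on the member. Rpl24 had between 0 and 14 counts in each library and its fold change of -1.15 in HDAC1-Y48E was not called. Restricting the canonical members to the 37 with fewer than 5 copy counts per 100 and under 10% of exon bases shared with another gene left the median in HDAC1-Y48E at -0.70, with 24 lower with 18 libraries and 37 lower with 17. In HDAC1-E63R it was -0.79 and -0.30, with 33 lower in both.

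**Figure D5:**
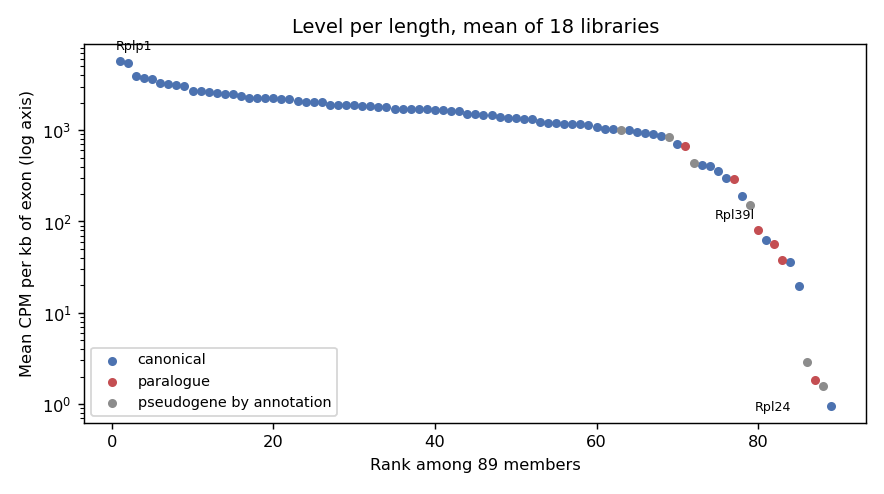
Mean level of each member over the 18 libraries in CPM per kilobase of transcript (log axis) against its rank among the 89 members, coloured by class. Rplp1 leads at 5710 and Rpl24 is the lowest canonical member at 0.961, while the paralogues have a median of 68.6.

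The genes that are not members but whose level ran most closely with the summed share of the members were described by Pearson's r over libraries, which share line, treatment and depth. Over 18 libraries these were Tlcd1, Rps12-ps3, Rpl34-ps1, Rps10-ps2 and Chmp2a, with r from 0.98 to 0.99. Tlcd1 overlaps Rpl23a on the opposite strand, and 3 of the others are processed copies of members. Over the 17 libraries without the set-apart one they were Nop53, Tmem59, Tlcd1, Rps12-ps3 and Ndufa6, again with r between 0.98 and 0.99. Nop53 is a nucleolar factor of large subunit assembly and Ndufa6 a subunit of respiratory complex I.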

How the data were processed

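Per the labels total RNA was extracted and the libraries were made with an NEB Next Ultra kit, and the submitters' processing notes name mm10, HISAT2 2.1.0, SAMtools 1.9 and HTSeq. The authors deposited 1 table of raw read counts per gene for each of the 18 libraries; strand use and annotation release are not given in the sources used here. The 5 entries that name no gene held 59.4% to 61.2% of all entries and were left out.

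From these counts edgeR 4.0.16 (R 4.3.3, limma 3.58.1) was run with its expression filter, TMM factors, 1 coefficient per group and quasi-likelihood F tests, for 9 comparisons over all 18 libraries, with Benjamini-Hochberg adjustment over all 18791 genes tested. A call needed an adjusted p below 0.01, and a differentially expressed gene (DEG) also a change beyond 2-fold. The SE is the fold change divided by the square root of F. CPM use TMM factors, and shares are percent of counts on genes. The scripts were tested on simulated data. DESeq2 1.42.0 and other settings were alternatives. Positions, lengths, overlaps and copies came from GENCODE on mm10, which held all 89 symbols, and promoter windows from RefSeq on GRCm38.p6. The length of 10 for the pyrimidine run was set after the windows were seen.

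The named genes are the largest changes among members called with no overlap between groups, the DEGs, the largest changes in the other comparisons, paralogues and their parents, the stalk, 5S particle and Rpsa, and the 5 most abundant per kilobase. The members, the lists and the tests were chosen with earlier results of these data known. The fits without HDAC1-E63R untreated replicate 3 for comparisons outside that group were added after the data were seen. Some results are not reported here. The floor of 3 counts covers counting error only.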

Additional observations from a re-analysis of the deposited data

Results flagged for a closer look

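The response of Rpl10l to OHT differed between HDAC1-Y48E and HDAC1-WT by 2.33 ± 0.30 on the log2 scale (SE; interaction in edgeR, adjusted p = 7.1e-06). It was higher in all 3 OHT libraries of HDAC1-Y48E and lower in all 3 of HDAC1-WT. For Rpl39l the difference between the same lines was 1.898 ± 0.28 (edgeR adjusted p = 3e-05), and that between HDAC1-Y48E and HDAC1-E63R was 1.36 ± 0.29 (edgeR adjusted p = 0.0063). Without HDAC1-E63R untreated replicate 3 these were 2.33 ± 0.18, 1.89 ± 0.15 and 0.89 ± 0.18.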

How the results depend on the processing

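No called result changed direction under the alternatives tried, and 3 medians over the members changed sign without HDAC1-E63R untreated replicate 3. Leaving out 1 replicate at a time, that library included, gave these ranges after OHT: members lower 0 to 9 in HDAC1-WT, 16 to 80 in HDAC1-E63R and 23 to 79 in HDAC1-Y48E; members higher 0 to 3 in HDAC1-E63R; DEGs 0 to 32 in HDAC1-E63R and 2 to 4 in HDAC1-Y48E; and the median in HDAC1-E63R -0.94 to -0.29. For the interactions the members called ranged over 0 to 14 (HDAC1-E63R against HDAC1-WT, median -0.78 to -0.15), 2 to 76 (HDAC1-Y48E against HDAC1-WT) and 0 to 56 (HDAC1-Y48E against HDAC1-E63R, median -0.35 to 0.30). For untreated lines they were 2 to 69 (HDAC1-E63R against HDAC1-WT, median -0.28 to 0.34), 1 to 16 (HDAC1-Y48E against HDAC1-WT) and 0 to 38 (HDAC1-Y48E against HDAC1-E63R, median -0.40 to 0.22). In HDAC1-E63R the 20 and 32 DEGs came without untreated replicate 1 or 2. Shares over all genes are given above for only 1 of these fits, that without HDAC1-E63R untreated replicate 3. The share differences ranged over -1.19 to -0.611 points in HDAC1-WT, -4.97 to -1.19 in HDAC1-E63R and -3.26 to -2.64 in HDAC1-Y48E. The cause of other changes was not tested.

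With library totals in place of TMM factors the median of all genes moved by 0.20 in HDAC1-E63R and 0.21 in HDAC1-Y48E. HDAC1-E63R then had 3 members higher, 25 lower and 1 DEG, with a member median of -0.49. HDAC1-Y48E had 2 DEGs and a member median of -0.465. The interactions called 1 (HDAC1-E63R against HDAC1-WT) and 2 (HDAC1-Y48E against HDAC1-E63R). Against HDAC1-WT the interaction medians were -0.41 for HDAC1-E63R and -0.34 for HDAC1-Y48E. Between these mutant lines untreated 1 member was called. Fitting only the libraries compared gave 2 lower in HDAC1-WT, 0 higher and 0 lower in HDAC1-E63R, 80 lower in HDAC1-Y48E, 75 and 0 for the interactions of HDAC1-Y48E with HDAC1-WT and HDAC1-E63R, and 1 and 13 for untreated HDAC1-E63R and HDAC1-Y48E against HDAC1-WT. Of all genes, these fits called 51 of 16453 lower in HDAC1-WT and 3828 of 17162 in HDAC1-Y48E. For the interaction of HDAC1-Y48E with HDAC1-WT, 1810 were higher and 2354 lower of 18286. Untreated HDAC1-E63R and HDAC1-Y48E against HDAC1-WT had 286 and 1978 higher and 349 and 1839 lower, of 16315 and 16188. Without a filter on low counts HDAC1-E63R had 2 higher, the interactions called 47, 43 and 2, and the untreated comparisons 13, 4 and 2. With a trend on GC content and length removed HDAC1-E63R had 2 higher, 2 DEGs and a member median of -0.54. HDAC1-Y48E had 2 DEGs and a member median of -0.52. The interactions called 2, 17 and 2, with medians against HDAC1-WT of -0.42 for HDAC1-E63R and -0.39 for HDAC1-Y48E. Untreated HDAC1-Y48E called 4 against HDAC1-WT and 1 against HDAC1-E63R. At an adjusted p below 0.05 the interactions called 2, 15 and 2, and untreated HDAC1-Y48E 2 against HDAC1-WT and 1 against HDAC1-E63R. DESeq2 called 2 for HDAC1-Y48E against HDAC1-E63R, and 34 members lower in HDAC1-Y48E and 56 in HDAC1-E63R. With the trend removed, the interaction of HDAC1-Y48E with HDAC1-WT had 1324 higher and 1757 lower of 18791 genes. Shares over all genes are not given without a filter, at an adjusted or unadjusted p below 0.05, by DESeq2 or with a replicate block. Over all entries, a larger total than counts on genes, the share went from 4.82% to 4.51% in HDAC1-WT, a difference of -0.309 points. In HDAC1-Y48E it went from 4.57% to 3.27%, a difference of -1.30. In HDAC1-E63R it went from 4.94% to 3.47%, or from 3.96% without the set-apart library. Without the 5 most abundant members the share of counts on genes went from 9.61% to 7.11% in HDAC1-Y48E, a difference of -2.502.

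The replicate numbers are shared between groups, and no pairing by them was seen. Over all tested genes, the deviations of same-numbered untreated and OHT libraries of a line correlated between -0.0194 and 0.0441. Whether such libraries shared a culture or preparation was not tested. The replicate block called 0 members for HDAC1-Y48E against HDAC1-E63R in place of 1, with 55 lower in HDAC1-E63R and 50 in HDAC1-Y48E, and moved no other count by over 1.5 times. Of the named members called with 18 libraries, 68 values in HDAC1-E63R and 38 in HDAC1-Y48E, over all alternatives, lost the call in the same direction, and 231 and 270 kept it. Depth limited Rpl24, Rpl3l, Rpl32l and Rps12l1, with at most 54 counts in a library.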
